A study of Mus musculus with 2 samples.

Results

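The 6 miRNAs described here are the mouse miR-29 and miR-26 family members mmu-miR-29a-3p, mmu-miR-29b-3p, mmu-miR-29c-3p, mmu-miR-29a-5p, mmu-miR-26a-5p and mmu-miR-26b-5p, out of 1881 mouse miRNAs on the array. They were chosen by name, as miRNAs linked to extracellular matrix and to insulin and PI3K signalling. The miRNA content of KPC-exosomes was compared with that of MPDC-exosomes, which served as the control. KPC cells are a pancreatic cancer line grown out of a tumor of mice carrying KrasLSL-G12D/+, Trp53LSL-R172H/+ and Pdx1-Cre, in which Cre under a pancreatic promoter switches on both mutant alleles. MPDC cells are a purchased line of murine pancreatic ductal epithelium whose genotype is not given in the sources used here. The KPC line was maintained in RPMI-1640 with 20% fetal bovine serum and the MPDC line in DMEM with 10%, so line, medium and serum cannot be told apart. There was 1 array per group, on the same slide, so no value has a replicate check and no test between the groups was possible.

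The miR-29 family is known for binding the transcripts of many collagens and other matrix proteins, and its members are raised in muscle, liver and fat of insulin-resistant animals, where they target components of the insulin to PI3K and AKT pathway. The miR-26 family is known as a brake on cell growth in several tumors and on the transcript of the methyltransferase Ezh2, and miR-26a has been linked to insulin sensitivity in liver. A miRNA finds its targets mainly through its seed, so family members with the same seed share most predicted targets, and the arm of the hairpin that is not loaded into Argonaute is usually degraded.

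The mature sequences are shown because the family members differ by few bases, which bears on what each array probe can tell apart. They are from RefSeq (GRCm38.p6), written 5′ to 3′, with the seed (bases 2 to 8) in capitals.

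mmu-miR-29a-3p: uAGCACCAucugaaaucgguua
mmu-miR-29b-3p: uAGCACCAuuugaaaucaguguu
mmu-miR-29c-3p: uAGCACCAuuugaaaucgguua
mmu-miR-26a-5p: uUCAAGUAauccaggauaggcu
mmu-miR-26b-5p: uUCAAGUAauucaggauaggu
mmu-miR-29a-5p: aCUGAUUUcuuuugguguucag

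Among the 1608 array miRNAs that matched a RefSeq sequence by name, the seed AGCACCA was held by the 3 miR-29 3p arms and by no other miRNA. The seed UCAAGUA was held by mmu-miR-26a-5p and mmu-miR-26b-5p and by no other. mmu-miR-29a-5p, the opposite arm of the miR-29a hairpin, had the seed CUGAUUU to itself. Counting from 1 at the 5′ end and writing the base of the first-named miRNA first, mmu-miR-29a-3p and mmu-miR-29c-3p differed by C10U alone. mmu-miR-29c-3p and mmu-miR-29b-3p differed by G18A, U21G and A22U over their shared length. mmu-miR-26a-5p and mmu-miR-26b-5p differed by C11U and C21U.

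The miR-29 hairpins lie in 2 pairs (GRCm38.p6, RefSeq). Mir29a (chr6:31062660-31062747) and Mir29b-1 (chr6:31063023-31063093) are on the minus strand with 275 bases between them. Mir29b-2 (chr1:195037040-195037120) and Mir29c (chr1:195037547-195037634) are on the plus strand with 426 bases between them, within the span of the lncRNA gene A330023F24Rik. Mir29b-1 and Mir29b-2 give the same mmu-miR-29b-3p, which an array cannot assign to either pair. The miR-26 hairpins lie within genes of the CTD small phosphatase family: Mir26a-1 (chr9:119031796-119031885) within Ctdspl, Mir26a-2 (chr10:126995530-126995613) within Ctdsp2 and Mir26b (chr1:74394310-74394394) within Ctdsp1, all on the plus strand. The array does not separate the hairpins that give mmu-miR-26a-5p.

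The longest probes of mmu-miR-29a-3p and mmu-miR-29c-3p are the most alike between members, and they are shown for the base on which their separation rests. They are read from the scanner files as DNA, 5′ to 3′, with the base opposite position 10 of the miRNA in capitals.

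mmu-miR-29a-3p probe: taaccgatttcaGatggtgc
mmu-miR-29c-3p probe: taaccgatttcaAatggtgcta

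The mmu-miR-29a-3p probe covered bases 3 to 22 of its miRNA and the mmu-miR-29c-3p probe bases 1 to 22, and each had 1 mismatch to the other miRNA. The probes of mmu-miR-29b-3p had 3 mismatches to mmu-miR-29c-3p over the bases they share, and those of the miR-26 members had 2 mismatches to each other's miRNA. How far a probe also bound its nearest relative was not tested.

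The signal of a miRNA is the sum of the background-subtracted total signals of its probes, each counted as detected where it exceeded 3 times the error that the scanner software assigned to it. The 5 brighter members had 2 probes each, and these 10 probes were detected on both arrays with 15 spots per probe. None of the miRNA spots was saturated. KPC-exosomes had 772 detected miRNAs and MPDC-exosomes 1031, with 726 on both arrays and 1077 on at least 1. Over those 726, the median log2 difference (KPC-exosomes minus MPDC-exosomes) was -1.37 before normalization and 0.53 after quantile normalization, the procedure that matches the log2 values the authors deposited. Quantile normalization gives both arrays the same distribution of signals, and the median of what it added to the difference of each of these miRNAs was 1.81. The mean difference of the 4 spike-in controls was 0.03 before it and 1.73 after it. Single controls ran from -0.31 to 0.38 before it and from 1.18 to 2.43 after it. Each difference is therefore given on both scales and relative to the median of the same scale. Where a miRNA was lower on 1 array, fewer vesicles carrying a miRNA and less of it per vesicle cannot be told apart.

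The labels of the arrays were set against marker miRNAs. The library labelled MPDC-exosomes held 10 of 10 miRNAs of pluripotent cells (the miR-290 and miR-302 clusters) with a summed signal of 484117, and the library labelled KPC-exosomes held 6 of 10 with 657. Of 7 epithelial miRNAs (the miR-200 family, miR-203-3p and miR-205-5p), 5 were detected in KPC-exosomes with a summed signal of 98.8, and 7 in MPDC-exosomes with 1781. Of 5 pancreas miRNAs, KPC-exosomes held miR-217-5p at 60.9 and MPDC-exosomes held miR-148a-3p at 1190, and miR-216a-5p, miR-216b-5p and miR-375-3p were detected on neither array. Of 5 mesenchymal miRNAs, none had a detected probe in the KPC array and 5 had one in the other, where their summed signal was 226. Of 6 miRNAs of blood cells, 5 were detected on each array, with summed signals of 721 in KPC-exosomes and 604 in MPDC-exosomes. Single members went both ways. miR-142a-3p, miR-142a-5p and miR-155-5p had the higher signal in KPC-exosomes, and miR-150-5p, miR-223-3p and miR-451a in MPDC-exosomes. The part of these differences between the libraries in the values of the miR-29 and miR-26 families was not tested.

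After quantile normalization, 3 of the 6 members were at least 2-fold higher in KPC-exosomes (mmu-miR-29a-3p, mmu-miR-29b-3p and mmu-miR-29a-5p), where 31.5% of the 1077 miRNAs detected on at least 1 array were called higher. In the other direction, 2 of the 6 were at least 2-fold lower (mmu-miR-29c-3p and mmu-miR-26b-5p), where 42.7% of the 1077 were called lower. Before normalization, 1 of the 6 was at least 2-fold higher (mmu-miR-29a-5p, against the value of 0.1 set for undetected miRNAs), with 11.1% of all miRNAs called higher. On that scale 3 of the 6 were at least 2-fold lower (mmu-miR-29c-3p, mmu-miR-26a-5p and mmu-miR-26b-5p), with 68.0% of all miRNAs called lower. Nothing about the families is read from these counts, which cover 6 members against shares of this size. The members lay on different sides of the median of all miRNAs, and so did the miR-29 3p arms among themselves.

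mmu-miR-29a-3p, the most studied family member in insulin resistance, had a signal of 2832 ± 239 (scanner error) in KPC-exosomes and 2755 ± 234 in MPDC-exosomes. The signals differed by less than the scanner error, with a log2 difference of 0.04 ± 0.17 before normalization. After quantile normalization the same signals stood at a log2 difference of 1.72, or 3.30-fold higher in KPC-exosomes. Relative to the median of the 726 miRNAs, mmu-miR-29a-3p was 1.41 higher on the log2 scale before normalization and 1.20 higher after it. Of the 726, 81.7% had a lower difference before normalization and 72.9% after it. Its position above the median thus appeared on both scales, while its ratio between the arrays depended on the normalization.

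mmu-miR-29b-3p, which shares the seed and comes from both hairpin pairs, had a signal of 794 ± 73.4 in KPC-exosomes and 1031 ± 95.2 in MPDC-exosomes. Before normalization it was 1.30-fold lower in KPC-exosomes, a log2 difference of -0.38 ± 0.19. After quantile normalization it was 2.12-fold higher, a log2 difference of 1.08 that lies close to the 2-fold threshold. The direction of mmu-miR-29b-3p between the arrays was thus set by the normalization. Relative to the median it was 1.00 higher before normalization and 0.55 higher after it, with 73.7% and 62.1% of the 726 miRNAs below it.

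mmu-miR-29c-3p, which shares the seed and comes from the chromosome 1 pair alone, had a signal of 246 ± 17.6 in KPC-exosomes and 3728 ± 265 in MPDC-exosomes. It was 15.1-fold lower in KPC-exosomes before normalization, a log2 difference of -3.92 ± 0.15 that was 27.0 times the scanner error. After quantile normalization it was 4.73-fold lower, at -2.24 on the log2 scale. Relative to the median it was at -2.55 before normalization and -2.77 after it. Of the 726 miRNAs, 74 had a lower difference before normalization, or 10.2%, and after normalization 8.68% had. mmu-miR-29c-3p was lower in KPC-exosomes on both scales.

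**Figure D1:**
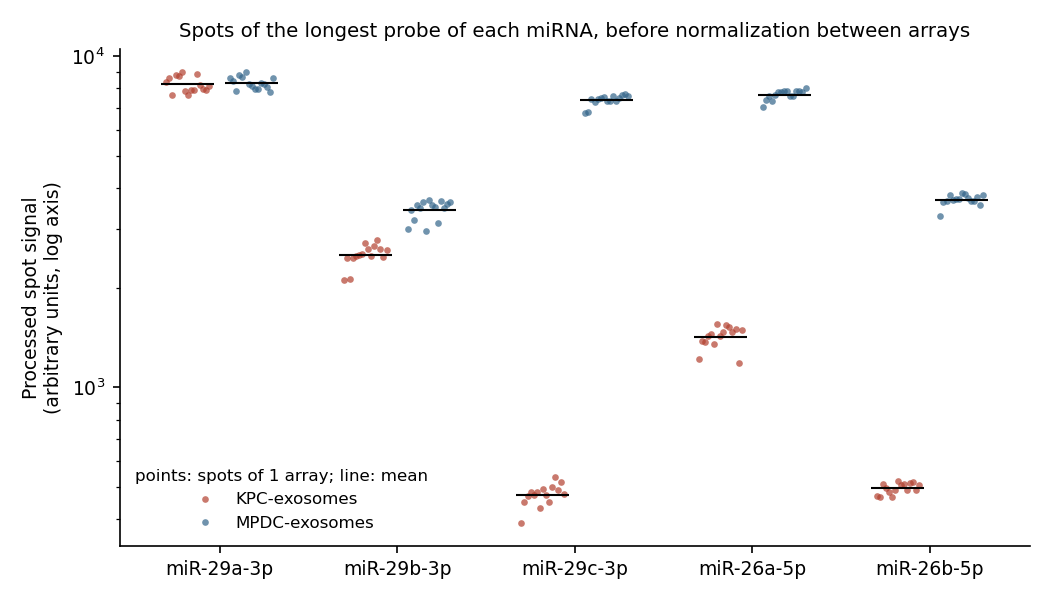
Processed signal of each spot of the longest probe of 5 members, on a log axis in arbitrary units and before normalization between arrays, with KPC-exosomes in red and MPDC-exosomes in blue. Points are the 15 spots of 1 array, which are technical repeats, and lines are their means. The spots overlap between arrays for mmu-miR-29a-3p and lie apart for the other 4 members. Levels are comparable within a probe and not between probes.

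The spots of each probe give the spread within an array. Over the 10 probes the coefficient of variation between spots was 2.50% to 8.96%, with a median of 6.14%, and the scanner error was 10.0% to 10.1% of each probe's signal. Spots of the longest mmu-miR-29a-3p probe ran from 7620 to 8963 in KPC-exosomes and from 7829 to 8983 in MPDC-exosomes, so they overlapped. Those of the longest mmu-miR-29c-3p probe ran from 389 to 538 and from 6727 to 7720, with no overlap. Spots of the longest mmu-miR-29b-3p probe ran from 2106 to 2792 and from 2966 to 3681, also with no overlap. Both probes of a member gave nearly the same log2 difference before normalization, each with an error between 0.20 and 0.21. The shorter probe lies within the longer one, so the probes of a member are not independent measurements. They gave 0.10 and 0.03 for mmu-miR-29a-3p, -0.43 and -0.37 for mmu-miR-29b-3p, and -3.93 and -3.91 for mmu-miR-29c-3p. For mmu-miR-26a-5p they gave -2.29 and -2.38, and for mmu-miR-26b-5p -2.85 and -2.86.

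The difference of mmu-miR-29c-3p minus that of mmu-miR-29a-3p does not depend on a common scaling of the arrays. It was -3.96 ± 0.23 on the log2 scale before normalization and -3.97 after it, so that relative to mmu-miR-29a-3p, mmu-miR-29c-3p was 15.6-fold lower in KPC-exosomes, or 17.5 scanner errors. The same quantity against mmu-miR-29b-3p was -3.54 ± 0.24 before and -3.32 after normalization. mmu-miR-29a-3p and mmu-miR-29b-3p stood 0.42 ± 0.26 apart before normalization, which is 1.63 scanner errors. mmu-miR-29c-3p thus stood apart from both other 3p arms with its seed, and from mmu-miR-29a-3p with C10U as the sole difference in sequence. As a family, the miR-29 3p arms had a median log2 difference of -0.38 before normalization and 1.08 after it, which is the value of mmu-miR-29b-3p, with mmu-miR-29c-3p far below it.

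mmu-miR-26a-5p, known as a growth-restraining miRNA, had a signal of 620 ± 46.1 in KPC-exosomes and 3153 ± 236 in MPDC-exosomes. It was 5.09-fold lower in KPC-exosomes before normalization, a log2 difference of -2.35 ± 0.15, and 1.77-fold lower after quantile normalization, at -0.82, which does not reach the 2-fold threshold. Relative to the median it was at -0.98 before normalization and -1.35 after it, with 29.3% and 24.1% of the 726 miRNAs below it. mmu-miR-26a-5p was lower in KPC-exosomes on both scales and called on 1 of them.

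mmu-miR-26b-5p, its relative from Mir26b, had a signal of 214.1 ± 15.9 in KPC-exosomes and 1553 ± 115 in MPDC-exosomes. It was 7.25-fold lower in KPC-exosomes before normalization, a log2 difference of -2.86 ± 0.15, and 2.36-fold lower after it, at -1.24. Relative to the median it was at -1.49 before normalization and -1.77 after it, with 20.9% and 18.7% of the 726 miRNAs below it. The miR-26 members had similar values, and the difference of mmu-miR-26b-5p minus that of mmu-miR-26a-5p was -0.51 ± 0.21 before normalization and -0.42 after it, or 2.37 scanner errors. Their median log2 difference was -2.60 before normalization and -1.03 after it, against -1.37 and 0.53 for all 726 miRNAs.

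In order of their log2 difference, mmu-miR-29a-3p was highest, followed by mmu-miR-29b-3p, mmu-miR-26a-5p, mmu-miR-26b-5p and mmu-miR-29c-3p, before and after normalization. Neighbours in that order differed least between mmu-miR-29a-3p and mmu-miR-29b-3p (0.42 before and 0.64 after normalization) and within the miR-26 pair (-0.51 and -0.42). The step from mmu-miR-29b-3p down to mmu-miR-26a-5p was -1.97 ± 0.24 before normalization. That from mmu-miR-26b-5p down to mmu-miR-29c-3p was -1.06 ± 0.21. Scanner errors cover the measurement of 1 array each and not the spread between exosome preparations.

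**Figure D2:**
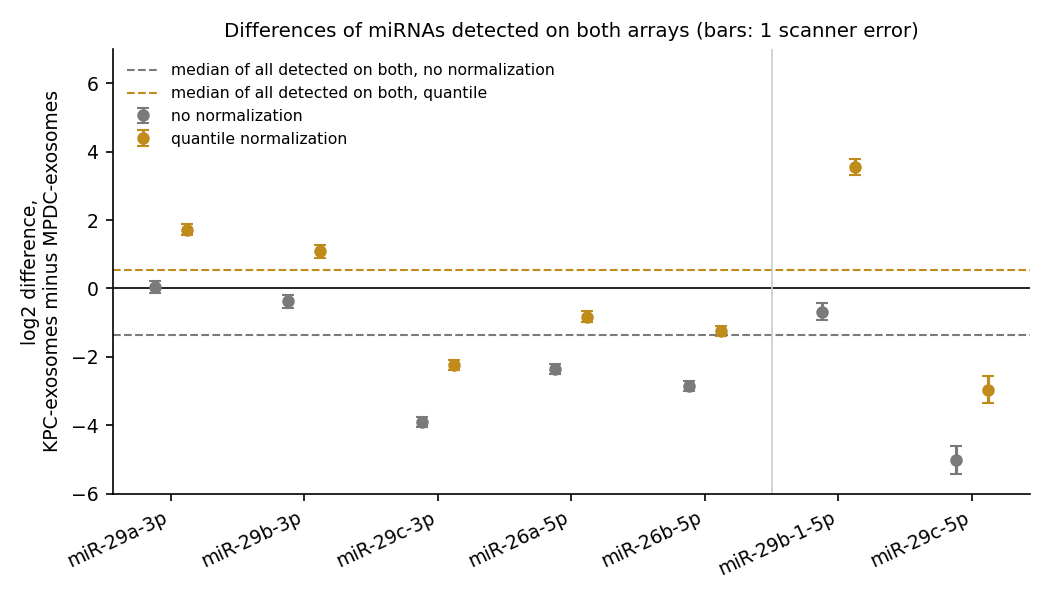
Log2 difference (KPC-exosomes minus MPDC-exosomes) of 5 members and, right of the grey line, of the other hairpin arms detected on both arrays, before normalization in grey and after quantile normalization in ochre. Bars are 1 scanner error, computed from the signals before normalization and drawn on both, and dashed lines are the medians of the 726 miRNAs, -1.37 and 0.53. mmu-miR-29b-3p and mmu-miR-29b-1-5p lie on different sides of 0 on the 2 scales, and mmu-miR-29c-3p, both miR-26 members and mmu-miR-29c-5p lie below 0 on both.

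mmu-miR-29a-5p, the arm opposite mmu-miR-29a-3p, was at the limit of detection. In KPC-exosomes 1 of its 4 probes was detected, the 22-base one, with a signal of 1.44 ± 0.459, or 3.14 times its error. In MPDC-exosomes the same probe read 1.01 ± 0.478, or 2.12 times its error, and the miRNA was not detected. Spots of that probe ran from 4.93 to 18.3 in KPC-exosomes and from 1.82 to 15.9 in MPDC-exosomes and overlapped. Its signal in KPC-exosomes was below the lowest detected signal of the other array, 1.51, so no fold is given. Summed over all 4 probes, detected or not, it read 1.86 ± 0.944 and 1.02 ± 1.00, and that sum gave a log2 difference of 1.40 after quantile normalization. Over the 12 settings that gave a value, its log2 difference ran from 0.12, with normexp background correction, to 8.28. The call of mmu-miR-29a-5p as higher thus rests on 1 probe near its threshold, set against the value of 0.1 for the other array.

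The other arms of the same hairpins were read in the same way. mmu-miR-29c-5p, from the hairpin of mmu-miR-29c-3p, had a signal of 3.75 ± 1.00 in KPC-exosomes (1 of 2 probes) and 122 ± 9.70 in MPDC-exosomes (2 of 2 probes). It was 32.4-fold lower in KPC-exosomes before normalization, at -5.02 ± 0.40 on the log2 scale, and 7.79-fold lower after it, at -2.96. On the probe detected on both arrays alone, the log2 difference before normalization was -4.60 ± 0.41. Both arms of the miR-29c hairpin were thus lower in KPC-exosomes on both scales.

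mmu-miR-29b-1-5p, from the hairpin next to Mir29a, had a signal of 5.95 ± 0.739 in KPC-exosomes (1 of 4 probes) and 9.51 ± 1.07 in MPDC-exosomes (3 of 4 probes). Before normalization it was at a log2 difference of -0.68 ± 0.24, and after it at 3.55. Its 22-base probe, the one detected on both arrays, read 5.95 and 5.86, a log2 difference of 0.02 ± 0.26. Quantile normalization added 4.22 to the difference of this dim miRNA and 1.46 to 1.68 to those of the 5 brighter members. mmu-miR-29b-2-5p, mmu-miR-26a-1-3p, mmu-miR-26a-2-3p and mmu-miR-26b-3p were detected on neither array, so the chromosome 1 and chromosome 6 sources of mmu-miR-29b-3p could not be compared through their own arms.

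Arms detected on both arrays were set side by side by hairpin pair, which leaves out mmu-miR-29a-5p. The arms that come from the chromosome 6 pair alone gave log2 differences before normalization of 0.04 (mmu-miR-29a-3p) and -0.68 (mmu-miR-29b-1-5p). Those from the chromosome 1 pair alone gave -3.92 (mmu-miR-29c-3p) and -5.02 (mmu-miR-29c-5p). mmu-miR-29b-3p, which both pairs give, was at -0.38. The difference of mmu-miR-29c-5p minus that of mmu-miR-29b-1-5p was -4.34 ± 0.47 before normalization and -6.51 after it. Both of these 5p arms had unlike sets of detected probes on the arrays. On the probe detected on both arrays, mmu-miR-29b-1-5p was at 0.02 and mmu-miR-29c-5p at -4.60 before normalization.

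**Figure D3:**
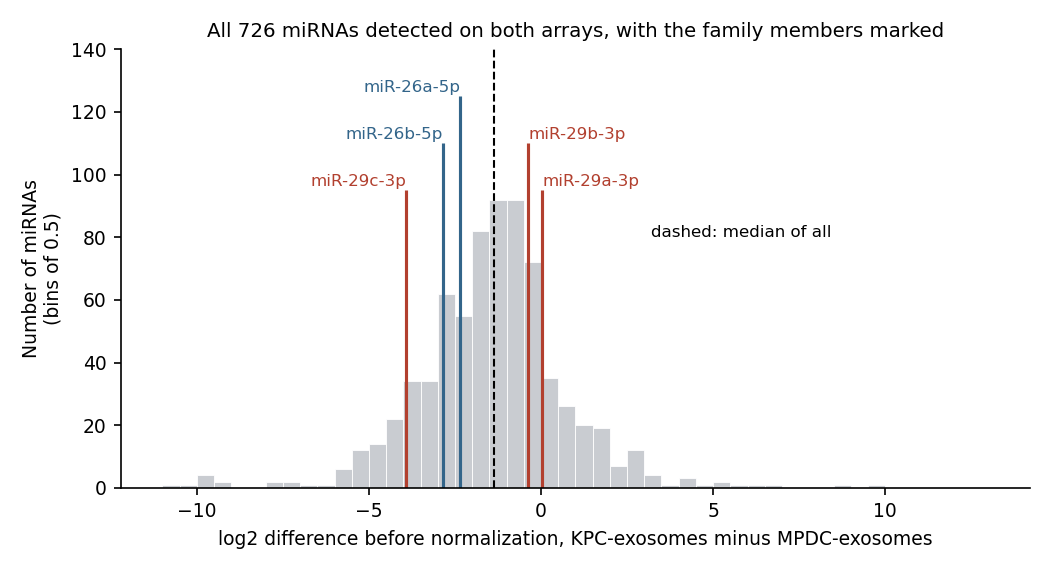
Number of miRNAs in bins of 0.5 of the log2 difference before normalization (KPC-exosomes minus MPDC-exosomes), for all 726 miRNAs detected on both arrays. Vertical lines mark the miR-29 members in red and the miR-26 members in blue, with heights chosen for legibility, and the dashed line is the median, -1.37. mmu-miR-29a-3p and mmu-miR-29b-3p lie right of the median, and mmu-miR-26a-5p, mmu-miR-26b-5p and mmu-miR-29c-3p lie left of it.

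Other miRNAs linked to the same processes were counted for context. Of 12 miRNAs of insulin and PI3K signalling, 10 were detected on at least 1 array. After quantile normalization 2 of these were at least 2-fold higher in KPC-exosomes (miR-21a-5p and miR-802-5p), 5 were lower and 3 were neither, beside 31.5% higher and 42.7% lower over all 1077. Before normalization 2 were higher and 8 lower, beside 11.1% and 68.0%. The median log2 difference of the 8 detected on both arrays was -0.98 after normalization and -2.70 before it, against 0.53 and -1.37 for all 726. miR-21a-5p, known for its high level in many tumors, had a signal of 51684 ± 4249 in KPC-exosomes and 6934 ± 606 in MPDC-exosomes, with log2 differences of 2.90 before normalization and 4.45 after it. miR-103-3p, which targets caveolin-1 and thereby insulin receptor signalling, had signals of 715 and 5249, with log2 differences of -2.88 and -1.36. The differences of mmu-miR-26a-5p and mmu-miR-26b-5p lay near that of miR-103-3p, and that of mmu-miR-29a-3p lay between miR-103-3p and miR-21a-5p.

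Of 6 miRNAs linked to the extracellular matrix, all were detected on both arrays. After quantile normalization 3 were at least 2-fold higher in KPC-exosomes (miR-21a-5p, miR-192-5p and let-7c-5p) and 2 lower (miR-30c-5p and miR-200b-3p), again beside 31.5% and 42.7% over all 1077, with a median log2 difference of 2.16. Before normalization 3 were higher and 3 lower, beside 11.1% and 68.0%, with a median of 0.22. miR-30c-5p, which like the miR-29 family is known to restrain matrix production, had a signal of 326 ± 28.0 in KPC-exosomes and 2862 ± 245 in MPDC-exosomes, at -3.13 before normalization and -1.61 after it. The matrix miRNAs thus lay on both sides of the median of all miRNAs, as the miR-29 3p arms did.

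Across the 13 settings of the processing, including the one reported, some values kept their side and others did not. mmu-miR-29a-3p had a log2 difference from 0.02 to 1.86, above 0 in 13 of 13 settings, though its signals differed by less than the scanner error where no normalization or the spike-in controls were used. mmu-miR-29b-3p ran from -0.40 to 1.45 and was below 0 in 2. mmu-miR-29c-3p ran from -3.95 to -2.10, mmu-miR-26a-5p from -2.37 to -0.52 and mmu-miR-26b-5p from -2.88 to -1.03, each below 0 in 13 of 13. Relative to the median of all miRNAs in the same setting, mmu-miR-29a-3p was 1.20 to 1.73 above it and mmu-miR-29b-3p 0.55 to 1.00 above it in 13 of 13. mmu-miR-29c-3p lay at -2.91 to -2.24, mmu-miR-26a-5p at -1.35 to -0.82 and mmu-miR-26b-5p at -1.86 to -1.29, below the median in 13 of 13. The difference of mmu-miR-29c-3p minus that of mmu-miR-29a-3p ran from -4.18 to -3.93. No normalization and the settings that only scale an array share a single value of these relative quantities by construction. The deposited values repeat quantile normalization, so the 13 settings are not independent checks.

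**Figure D4:**
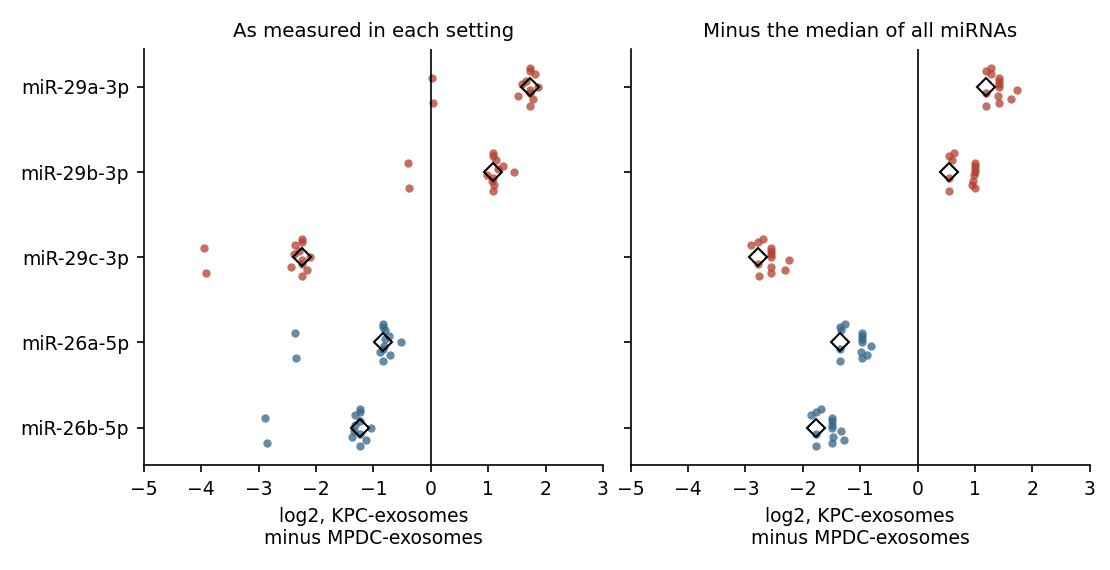
Log2 difference (KPC-exosomes minus MPDC-exosomes) of 5 members in each of 13 processing settings, as computed on the left and minus the median of the miRNAs common to both arrays in the same setting on the right. Points are settings, spread vertically for legibility, and open diamonds mark quantile normalization. On the right mmu-miR-29a-3p and mmu-miR-29b-3p lie above 0 and the other 3 members below 0 in every setting, while on the left mmu-miR-29b-3p lies on both sides of 0. Settings that only scale an array have the same value on the right by construction.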

How the data were processed

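miRNAs of KPC-exosomes and MPDC-exosomes were hybridized to Agilent mouse miRNA arrays (1 colour, Cy3), 1 array for each. The authors deposited the scanner output, which holds linear intensities with their errors, background-subtracted within each array and not normalized between arrays. The file headers name Feature Extraction 10.7.1.1, and the submitters' processing notes name version 9.1. A table of log2 values, 1 for each miRNA and array, was deposited by the authors too, background-subtracted and normalized in GeneSpring per the study's methods, which do not name the procedure.

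Total probe signals above 3 errors were summed for each miRNA, with 0.1 in place of the sum where no probe passed, and log2 was taken. Both arrays were then quantile normalized together with 21 control features, which matched the deposited log2 values within 1.11e-05. Calls required detection on 1 array or both and a difference of 2-fold or more. The scanner error of a log2 difference combines the relative errors of both arrays in quadrature. With 1 array per group and 1 slide there was no test, no batch to separate and no SD. Precision is limited by the number of arrays.

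The rule for named miRNAs covered the 6 members, the other arms of their hairpins, miRNAs with the same seed, and the pathway and marker lists. The members and lists were chosen with earlier results of these data known. Alternatives were other scalings, probe summaries, floors, background correction and thresholds. The calls were tested on simulated data. Those data raised as many miRNAs as they lowered, so they do not cover the imbalance between these arrays. Sequences and positions are from RefSeq (GRCm38.p6). The tools were Python 3.11.15 (pandas 2.3.3, numpy 2.4.6, matplotlib 3.10.9) and limma 3.58.1 in R 4.3.3.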

Additional observations from a re-analysis of the deposited data

How the results depend on the processing

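The count of members at least 2-fold higher in KPC-exosomes was 3 with quantile normalization and 1 with no normalization, with quantile normalization over the miRNAs detected on both arrays, with spike-in scaling and with a 4-fold threshold. It was 2 with normexp and with detection required on both arrays, where the call of mmu-miR-29a-5p was lost. The count at least 2-fold lower was 2, with 3 under no normalization and under spike-in scaling and 1 with a 4-fold threshold. The median log2 difference of the miR-29 3p arms, and that of mmu-miR-29b-3p which sets it, turned to -0.38 with no normalization and to -0.40 with spike-in scaling, and was 1.45 when scaled by the 75th percentile over every miRNA. mmu-miR-29b-1-5p turned to -0.68 and -0.70 under the first pair. The median of the miR-26 5p arms was -2.60 with no normalization, -2.63 with spike-in scaling, -0.78 with that 75th percentile and -0.92 with normexp. The difference of mmu-miR-29c-3p minus that of mmu-miR-29a-3p moved by less than its scanner error under all 12 alternatives. A scaling of the arrays cancels in this difference, so the alternatives that only scale could not test it. No normalization and spike-in scaling differ from the others by construction, as they keep the lower median signal of KPC-exosomes. No paired analysis was possible because there was 1 array per group, and for the same reason no array could be left out and the slide could not be a block. The signal of mmu-miR-29a-5p was 3.14 times its error.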
